A study of Mus musculus with 3 samples.

Results

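The genes described here are the ligands and receptors of the 4 classical axon guidance systems: semaphorins with plexins and neuropilins, ephrins with Eph receptors, Slits with Robo receptors, and netrins with Unc5 receptors. They were picked by a rule on gene symbols that holds no measured value, though earlier results of these data were known. They make up 70 of the 25562 genes in the count files. The 9 families hold 20 semaphorins, 9 plexins, 2 neuropilins, 8 ephrins, 14 Eph receptors, 3 Slits, 4 Robo receptors, 5 netrins and 5 Unc5 receptors. The last number includes Unc5cl, which carries a matching symbol but is only an Unc5-like gene. The netrins include Ntng1 and Ntng2, lipid-anchored netrin-Gs that are counted with this family by symbol.

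Neurons were derived from the medial ganglionic eminence (MGE) of C57Bl/6 mouse embryos at day 14, labelled wild type, and kept for 10 days in culture. All 3 cultures were silenced overnight from day 9 with TTX, a blocker of voltage-gated sodium channels, and AP-5, a blocker of NMDA receptors. The extracellular potassium chloride was then raised to 55 mM for 1 or 6 h, which depolarises the membrane, and the culture labelled 0 h was left unstimulated. Each time is 1 library of total RNA depleted of ribosomal RNA and read strand by strand, so no difference between times has a replicate check.

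Guidance receptors sit on growth cones and migrating neurons and turn a bound ligand into attraction or repulsion. Class 3 semaphorins are secreted and mostly act through a neuropilin, which binds the ligand, and a class A plexin, which signals. The other vertebrate semaphorins are tied to the membrane and bind plexins directly. A-type ephrins are held by a lipid anchor and B-type ephrins span the membrane, and both can signal back into the cell that carries them. In the embryonic forebrain, interneurons born in the MGE use several of these cues, among them semaphorins and neuropilins, while they migrate to the cortex.

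The promoters of the 3 guidance genes with the highest exonic ratio at 6 h are shown first, followed by that of Epha8, which had the lowest. Each is the 250 bases before the gene start on the gene's own strand, 5′ to 3′, from RefSeq on GRCm38.p6, a later build than that of the counts. They are printed because the members that were higher shared no searched motif in this window, while Epha8 held matches. Not every lower member did, as given below. None of the motifs occurred in more than 17.8% of all promoter windows, so a window without a match is common. Capitals mark matches to the motifs described below.

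Nrp1 (chr8:128358823-128359072, plus strand): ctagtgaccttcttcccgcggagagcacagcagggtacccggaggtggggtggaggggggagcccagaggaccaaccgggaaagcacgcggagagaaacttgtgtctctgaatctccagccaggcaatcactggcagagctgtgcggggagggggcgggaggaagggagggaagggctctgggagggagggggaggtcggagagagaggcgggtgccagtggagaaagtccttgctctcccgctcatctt

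Sema3e (chr5:14025026-14025275, plus strand): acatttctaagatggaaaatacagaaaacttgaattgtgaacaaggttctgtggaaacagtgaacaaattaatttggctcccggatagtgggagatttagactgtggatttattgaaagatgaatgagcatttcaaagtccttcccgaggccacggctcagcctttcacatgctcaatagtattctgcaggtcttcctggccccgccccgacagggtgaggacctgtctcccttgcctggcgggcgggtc

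Plxnd1 (chr6:115995006-115995255, minus strand): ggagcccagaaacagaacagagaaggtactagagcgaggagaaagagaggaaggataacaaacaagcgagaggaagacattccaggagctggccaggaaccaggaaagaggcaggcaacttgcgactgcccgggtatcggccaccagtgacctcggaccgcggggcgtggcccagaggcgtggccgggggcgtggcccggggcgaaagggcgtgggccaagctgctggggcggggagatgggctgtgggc

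Epha8 (chr4:136956817-136957066, minus strand): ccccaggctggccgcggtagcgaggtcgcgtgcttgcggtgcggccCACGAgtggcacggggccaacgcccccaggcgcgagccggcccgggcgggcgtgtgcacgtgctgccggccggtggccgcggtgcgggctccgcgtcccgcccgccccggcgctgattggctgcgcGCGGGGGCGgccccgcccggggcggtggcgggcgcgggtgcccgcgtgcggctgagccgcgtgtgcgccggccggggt

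RefSeq held 77 such windows for 61 of the 70 genes. Both strands were searched for motifs bound by activity-regulated factors. None of TGACGTCA (the cyclic AMP response element, CRE), CGTCA (a partial CRE, also inside the full one), TGANTCA (AP-1), GCGNGGGCG (Egr) and TCGTG (the core bound by Npas4) occurred in the windows of Nrp1, Sema3e or Plxnd1. The Epha8 window held 1 Egr match, 78 to 70 bases before the start, and 1 match to the Npas4 core, 204 to 200 bases before it. Among the other lower members, Ntn4 held no match and Ntn2l 1 match to the Npas4 core. Efna3 held 1 Egr match in 1 window and none in another. G and C made up 84.0% of the Epha8 window, against 64.4%, 48.0% and 64.8% in those of Nrp1, Sema3e and Plxnd1. Over all guidance windows, the Egr letters occurred in 12 of 77 (15.6%, against 4.70% of all 32851 windows) and TCGTG in 13 (16.9% against 13.3%). The other shares were 1.30% against 1.55% for the full CRE, 9.09% against 17.8% for CGTCA and 3.90% against 6.75% for AP-1. The guidance windows were richer in G and C, with a median of 64.4% against 52.4% of bases, and the part of base composition in these shares was not tested.

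The libraries held 2189394 to 2480579 sense exonic reads and 1789710 to 2123187 sense intronic reads. All 12 matched marker genes of MGE-derived interneurons had at least 20 exonic reads in some library. None of the 6 excitatory cortical markers and none of the 6 microglial markers did, and 4 of the microglial markers had no exonic read. Of the markers of astrocytes and radial glia, 7 of 8 were measured, with a summed level of 2046.8, 2130.7 and 2300.6 RPM (exonic reads relative to the scaled library size) at 0, 1 and 6 h. Of the oligodendrocyte lineage markers, 5 of 8 were measured (141.9, 140.9 and 176.0 RPM), and 1 of 6 endothelial and mural markers (12.05, 9.15 and 10.97). The part of these other cells in the guidance values was not tested, and in such bulk RNA fewer cells of a type and less RNA per cell cannot be told apart.

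Of the 70 guidance genes, 55 had at least 20 exonic reads in some library, 8 had fewer, and 7 were at or under 3 reads in every library. Those 7 were Epha1, Efna1, Unc5cl, Plxnb3, Robo3, Robo4 and Sema3g. The first 3 had no exonic read in any library, and 3 reads, taken as the limit that a count of 0 allows, equal 1.34, 1.19 and 1.27 RPM at 0, 1 and 6 h. Together the 70 genes held 13274, 14018 and 14968 exonic reads.

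Levels between genes were compared as RPKM, exonic reads divided by the length of the exon model in kilobases and by the scaled library size. At 0 h the order was led by Efnb3, a transmembrane ephrin, at an RPKM of 97.5 (95% counting interval 90.3 to 105), from 682 reads. Epha5, a receptor for A-type ephrins, followed at 71.1 (66.1 to 76.3), then Efnb2 at 67.3 (62.2 to 72.6) and Robo2, a Slit receptor, at 63.8 (60.1 to 67.6). The intervals of these 3 overlap, so their order at 0 h is not resolved by the counts. Plxna1 at 51.5 (47.9 to 55.4) and Sema6d, a transmembrane semaphorin, at 49.5 (46.0 to 53.3) came next. At 6 h Efnb3 stood at 98.6 (91.6 to 106) and Robo2 at 97.9 (93.5 to 102), so the intervals of the leading pair overlapped at that time.

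The other family leaders at 0 h were lower. They were Unc5d at 30.1, Nrp2 at 20.4, Slit1 at 13.0 and Ntn1 at 11.8. Ligands and receptors of 1 system were thus present at unequal levels: Robo2 exceeded Slit1, and Epha5 exceeded the A-type ephrin Efna5, which stood at 14.3. Transmembrane B-type ephrins were the reverse case, with Efnb3 and Efnb2 above the leading B-type receptor, Ephb2, at 23.8.

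**Figure D1:**
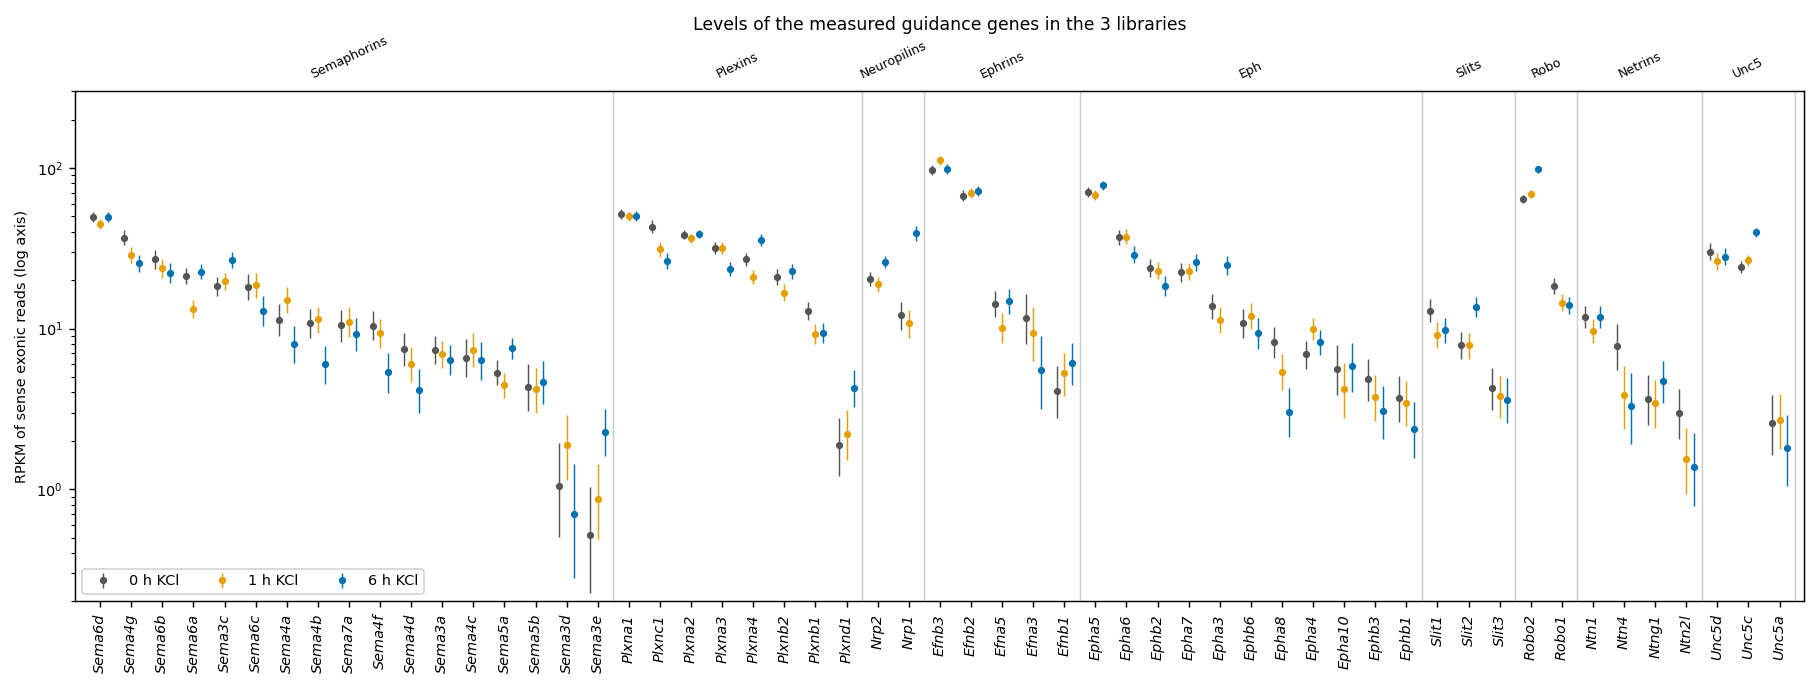
RPKM of exonic reads (log axis) for the 55 guidance genes with at least 20 reads in some library, grouped by family, at 0 h (grey), 1 h (orange) and 6 h (blue). Points are single libraries and bars are exact 95% Poisson intervals; Efnb3 led at 97.5 at 0 h, and Nrp1, Robo2 and Unc5c are highest at 6 h within their own 3 points.

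Differences between times are ratios of reads scaled by the trimmed mean of M-values, with exact 95% intervals that cover counting error only, since PCR reads without molecular identifiers are not independent molecules. A gene was compared where at least 1 of the 2 libraries had 20 reads. It was counted as higher or lower where the ratio was at least 2 or at most 0.5 and its interval left out 1.

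After 1 h of KCl, none of the 54 guidance genes compared was at least 2-fold higher in exonic reads, where 1.58% of all genes compared were. One gene, Ntn4, was at least 2-fold lower, against 1.43% of all genes. Ntn4, a laminin-related netrin, had 38, 21 and 17 exonic reads at 0, 1 and 6 h. It was lower at 1 h (ratio 0.493, 0.275 to 0.861) and at 6 h (0.423, 0.224 to 0.768), but scaling by uniquely mapped reads moved the 1 h ratio to 0.582, outside the 2-fold rule. Without a fold limit, the interval lay below 1 for 13 of the 54 guidance genes (12.9% of all genes) and above 1 for 2 (12.1%). The 2 were Epha4, with 98, 158 and 123 reads and a 1 h ratio of 1.44 (1.11 to 1.87), and Efnb3, with 682, 875 and 730 reads and a 1 h ratio of 1.14 (1.03 to 1.27). Sema6a, a transmembrane semaphorin, was the measured semaphorin with the lowest 1 h ratio. It had 328, 229 and 370 reads, a ratio of 0.623 (0.524 to 0.739) at 1 h and of 1.07 (0.917 to 1.24) at 6 h, so the 1 h library alone was low.

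The median log2 ratio at 1 h was -0.09 over the guidance genes and 0.01 over all genes compared. Under scaling by uniquely mapped reads the median of all genes moved to 0.25 at 1 h and 0.15 at 6 h, so small ratios depend on the scaling.

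After 6 h, 3 guidance genes were at least 2-fold higher in exonic reads (4.92% of all 10095 genes compared were) and 4 were at least 2-fold lower (5.42% of all). These shares are close to those of all genes. The 3 higher genes were Nrp1, Sema3e and Plxnd1, and the 4 lower ones Epha8, Efna3, Ntn2l and Ntn4. At a limit of 1.5-fold, 7 were higher (11.6% of all genes) and 8 lower (13.2%). The interval lay above 1 for 11 (23.2% of all genes) and below 1 for 16 (21.0%). The median log2 ratio was -0.05, against 0.00 for all genes.

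**Figure D2:**
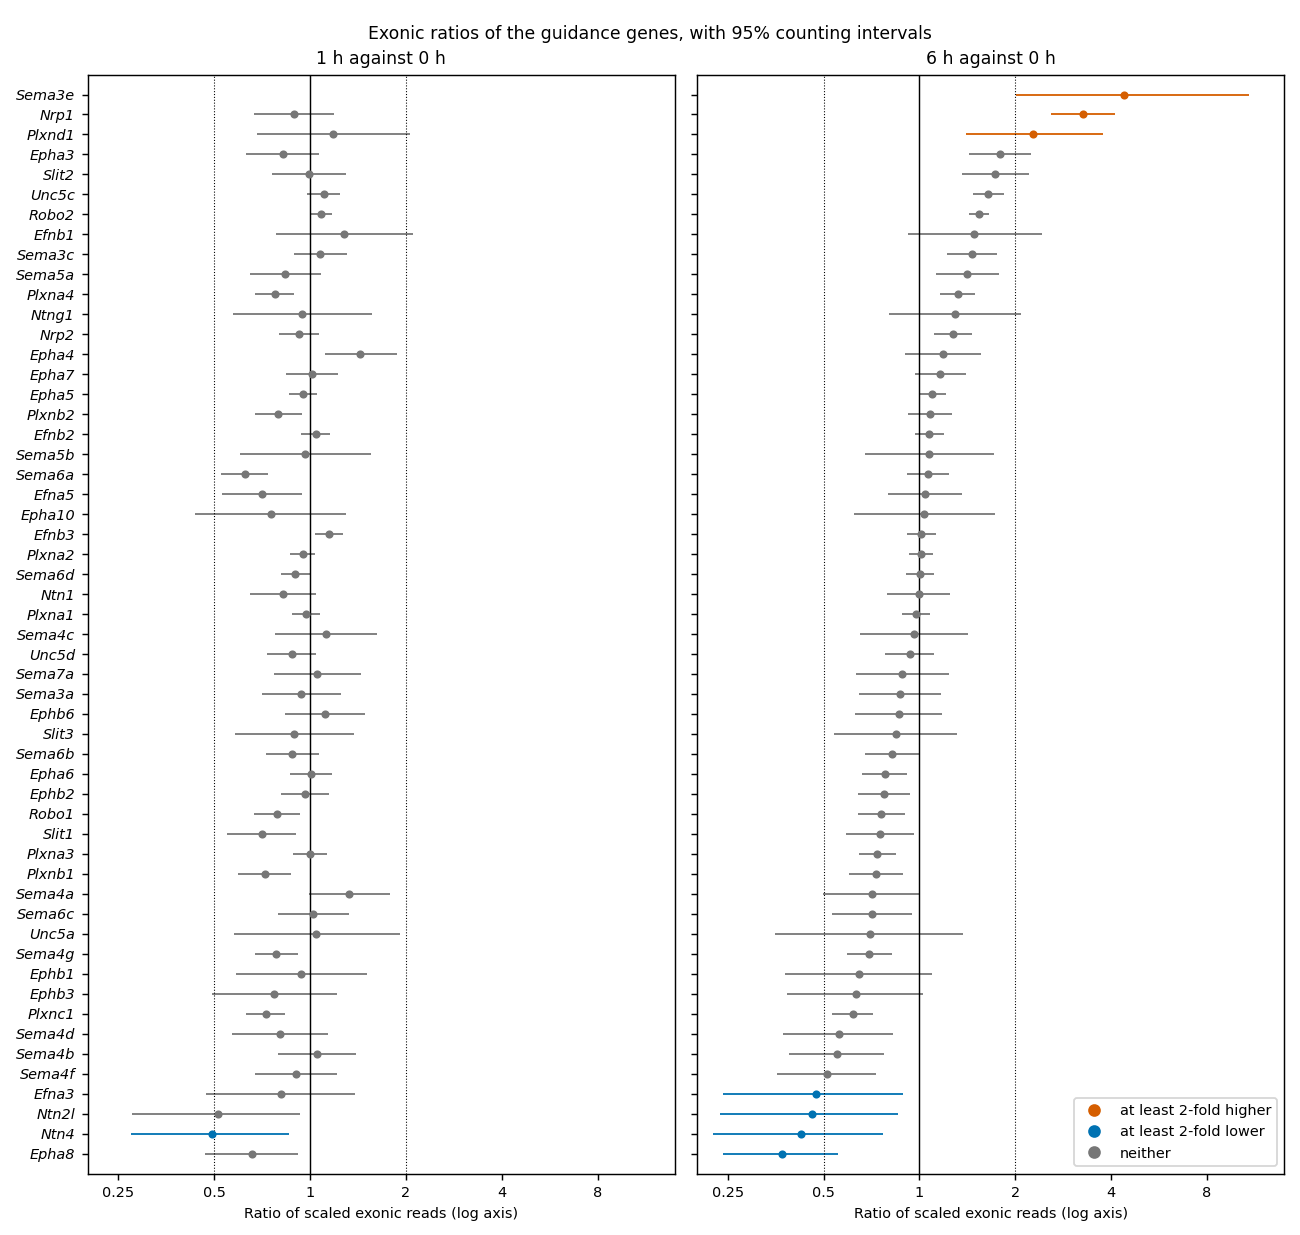
Ratios of scaled exonic reads (log axis) at 1 h against 0 h (left) and at 6 h against 0 h (right) for the 54 guidance genes compared at 6 h, ordered by the 6 h ratio. Bars are 95% counting intervals, dotted lines mark 0.5 and 2; genes without a point at left had under 20 reads in both libraries. Ratios at 1 h lie mostly within the dotted lines, and at 6 h 3 genes lie above and 4 below them.

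Among the neuropilins and plexins, Nrp1 had the largest count difference. It encodes a co-receptor for class 3 semaphorins and for vascular endothelial growth factor and lies at chr8:130883140-131027247 (mm9, plus strand). It had 98 exonic reads at 0 h, 98 at 1 h and 338 at 6 h, a 6 h ratio of 3.26 (2.60 to 4.13). The 0 and 1 h libraries were alike and the 6 h library alone was high. The coding part gave 80, 85 and 276 reads and reads across splice junctions 11, 8 and 43, so the difference was present in spliced RNA. Nrp2, the related co-receptor, had 371, 384 and 500 reads and a 6 h ratio of 1.27 (1.11 to 1.46), in the same direction and smaller.

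Plxnd1, a plexin best known for its role in vessel patterning, had 25, 33 and 60 exonic reads, a 6 h ratio of 2.27 (1.40 to 3.78), with 4, 5 and 14 reads across splice junctions. Sema3e, a secreted semaphorin that binds Plxnd1 directly, had 8, 15 and 37 exonic reads and a 6 h ratio of 4.37 (2.005 to 10.9). Both members of this ligand and receptor pair were highest at 6 h, from low levels: 0.520, 0.870 and 2.28 RPKM for Sema3e and 1.88, 2.21 and 4.27 for Plxnd1. With a minimum of 50 reads Sema3e is no longer compared.

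The class A plexins, which signal for the neuropilins, differed in direction. Plxna4 was higher at 6 h (425, 369 and 593 reads, ratio 1.32, 1.16 to 1.498) and Plxna3 lower (495, 556 and 386 reads, 0.737, 0.644 to 0.844). Plxna1 and Plxna2, both abundant, had 6 h ratios of 0.975 (0.880 to 1.08) and 1.01 (0.925 to 1.11), narrow intervals that include 1. Plxnc1, the receptor for Sema7a, was lower at both times. It had 455, 370 and 297 reads, with ratios of 0.725 (0.631 to 0.834) at 1 h and 0.617 (0.532 to 0.716) at 6 h, and its place in the order of levels went from 7 at 0 h to 14 at 6 h.

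Of the secreted class 3 semaphorins, 3 of 7 could be compared at 6 h: Sema3e, Sema3c and Sema3a. Sema3c had 203, 245 and 314 reads (6 h ratio 1.46, 1.22 to 1.75). Sema3a, the classical repellent that acts through Nrp1, had 98, 103 and 90 reads (0.869, 0.645 to 1.17), so its counts do not show a difference in either direction. Sema3d, with 10, 20 and 7 reads, met the 2-fold rule as lower between 1 and 6 h (0.371), and no other guidance gene did (4.63% of all genes). Higher between 1 and 6 h were Epha3, Nrp1 and Sema3e (4.17% of all genes), at 2.19, 3.66 and 2.62.

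All 6 class 4 semaphorins, transmembrane proteins whose main receptors include B-type plexins, were below 1 at 6 h, where 50.2% of all genes were above 1. Their intervals lay below 1 for 4 of them (21.0% of all genes), and none met the 2-fold rule. In introns, described below, 4 of the class could be compared at 6 h. Their ratios were 0.795 to 0.992, and all 4 intervals include 1. Sema4f had 94, 95 and 51 exonic reads and a 6 h ratio of 0.513 (0.358 to 0.729). Sema4b had 96, 113 and 56 reads (0.552, 0.390 to 0.775) and Sema4d, a ligand of Plxnb1, 73, 66 and 43 reads (0.557, 0.373 to 0.823). For Sema4f and Sema4b the 0 and 1 h libraries were close and the 6 h library was low. For Sema4d the ratio was 0.806 (0.569 to 1.14) at 1 h and 0.691 (0.459 to 1.03) between 1 and 6 h. Both of these intervals include 1. Sema4g, the most abundant of the class, had 355, 312 and 261 reads (0.695, 0.590 to 0.818), while Sema4a at 0.709 (0.499 to 1.00) and Sema4c at 0.963 (0.652 to 1.42) had intervals that include 1. At 1 h the class was mixed, with 3 above and 3 below 1. Plxnb1 was lower as well (243, 196 and 188 reads, 6 h ratio 0.732, 0.602 to 0.889).

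Sema6d, the most abundant semaphorin, had 726, 732 and 770 reads and a 6 h ratio of 1.00 (0.905 to 1.11). Sema5b, Sema6a, Sema6b, Sema6c and Sema7a, also membrane-bound, had 6 h exonic ratios from 0.709 to 1.07. Sema5a, the remaining one, stood above them at 1.42 (1.13 to 1.78), and its reads are given with its introns.

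Among the ephrins, the B-type ligands Efnb3 and Efnb2 differed little in exonic reads at 6 h. The ratios were 1.01 (0.911 to 1.12) for Efnb3 and 1.08 (0.966 to 1.20) for Efnb2. Efnb1, the third B-type ligand, had only 30, 43 and 47 reads. Its 6 h ratio was 1.48 (0.918 to 2.43), so the counts do not resolve a difference. Efna3, a lipid-anchored ligand, had 32, 29 and 16 reads and was lower at 6 h (0.473, 0.242 to 0.887). Scaling by uniquely mapped reads put it at 0.524, outside the 2-fold rule. Efna5 had 111, 88 and 122 reads, low at 1 h alone (0.707, 0.528 to 0.944).

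The Eph receptors moved in both directions. Epha8, a receptor for A-type ephrins at chr4:136485334-136512733 (mm9, minus strand), had 87, 64 and 34 exonic reads. Its ratio was 0.656 (0.468 to 0.917) at 1 h and 0.370 (0.241 to 0.555) at 6 h, so each later library was lower than the one before it. Epha3, another receptor for A-type ephrins, had 123, 113 and 233 reads and a 6 h ratio of 1.79 (1.43 to 2.25), with the 6 h library alone high. Epha5, the most abundant receptor of the family, had 758, 808 and 880 reads (1.10, 0.995 to 1.21), and Epha6 had 326, 369 and 268 (0.777, 0.659 to 0.917). All 4 B-type receptors compared were below 1 at 6 h, at 0.630 to 0.861, where 50.2% of all genes were above 1. The interval lay below 1 for 1 of them (21.0% of all genes), Ephb2 (255, 276 and 209 reads, 0.775, 0.642 to 0.934).

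In the Slit and Robo system the ligands and the receptors each differed in direction. Slits are secreted and repel axons through Robo receptors. Slit2 had 108, 120 and 197 exonic reads and a 6 h ratio of 1.73 (1.36 to 2.20). Slit1 had 152, 120 and 121 reads (0.753, 0.588 to 0.962), and Slit3 46, 46 and 41 (0.843, 0.540 to 1.31). Among the receptors, Robo2 had 1150, 1392 and 1867 reads, the largest counts of all 70 genes, and a 6 h ratio of 1.53 (1.43 to 1.65). Robo1 had 312, 276 and 250 reads and a ratio of 0.758 (0.639 to 0.898). Thus in exonic reads Slit2 and Robo2 were high at 6 h, and Slit1 and Robo1 were highest at 0 h. Intronic reads, described below, differed for Robo1, with 693, 583 and 695 reads and a 6 h ratio of 1.125 (1.01 to 1.25). Slit1 had 125, 73 and 90 intronic reads (0.808, 0.609 to 1.07).

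Secreted netrins such as Ntn1 are laminin-related ligands that attract through Dcc and repel through Unc5 receptors. This does not describe the lipid-anchored netrin-Gs, Ntng1 and Ntng2, which are given with the introns. Ntn1 had 152, 140 and 160 exonic reads (6 h ratio 0.995, 0.792 to 1.25). Ntn2l, which RefSeq now names Ntn3, had 33, 19 and 16 reads and a 6 h ratio of 0.459 (0.236 to 0.857). Its exons overlap Tbc1d24 on the same strand, a gene with 394, 470 and 440 reads, so some reads may belong to either gene, and scaling by uniquely mapped reads put Ntn2l at 0.508. Of the receptors, Unc5c had 503, 622 and 876 reads and a 6 h ratio of 1.65 (1.47 to 1.84). Unc5d had 262, 257 and 258 reads (0.931, 0.781 to 1.11). Dcc, which is not one of the 70, had 380, 274 and 312 reads, a ratio of 0.643 (0.549 to 0.753) at 1 h and 0.776 (0.666 to 0.904) at 6 h.

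Total RNA also holds unspliced transcripts, so reads in introns were measured beside those in exons. The 70 genes held 26296, 18634 and 29841 sense intronic reads, or 1.98, 1.33 and 1.99 per exonic read. All genes together held 2123187, 1789710 and 2095060 intronic beside 2189394, 2457167 and 2480579 exonic reads. Their intronic reads per exonic read were thus also lowest at 1 h. At 6 h, 6 of the 45 guidance genes compared were at least 2-fold higher in introns (5.27% of all 8236 genes compared) and 2 were at least 2-fold lower (5.59%). The interval lay above 1 for 18 (22.9% of all genes) and below 1 for 7 (15.9%). The 6 higher genes were Nrp1, Sema3c, Sema3e, Sema5a, Slit2 and Ntng2. Of these, 5 are ligands, and 23 of the 45 genes compared were ligands.

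Nrp1 had 273, 197 and 978 intronic reads, a 6 h ratio of 4.02 (3.51 to 4.61). Each of its 16 introns had more reads at 6 h than at 0 h. The intron with most reads, intron 2, went from 105 to 347 reads and the others together from 168 to 631. Sema3e had 24, 14 and 94 intronic reads (4.39, 2.78 to 7.19), close to its exonic ratio. Its antisense intronic reads were 18, 1 and 1, so the sense and antisense reads did not go together. At 0 h it thus had 18 antisense beside 24 sense reads. Antisense intronic reads of the 70 genes together were also highest at 0 h, at 650, 235 and 237. Over all genes they were 304290, 274454 and 280454. The source of the antisense reads was not tested.

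Sema5a, a membrane semaphorin with thrombospondin repeats, differed more in introns than in exons. It had 121, 100 and 455 intronic reads, a 6 h ratio of 4.22 (3.44 to 5.20), beside 129, 121 and 193 exonic reads and a ratio of 1.42 (1.13 to 1.78). The 2 intervals do not overlap. Without its intron of most reads the intronic ratio was 5.05 (3.90 to 6.61), so the difference did not rest on that intron. Slit2 had 546, 478 and 1209 intronic reads (2.48, 2.24 to 2.75), also above its exonic 1.73 (1.36 to 2.20). The 2 regions were scaled separately. The scaled sizes at 0 and 6 h were 2241016 and 2369773 in exons and 2299051 and 2050052 in introns. The gap between exonic and intronic ratios therefore depends in part on the scaling. Robo2 had 3262, 2484 and 5515 (1.90, 1.82 to 1.98) and Ntng1, a lipid-anchored netrin-G, 247, 175 and 419 (1.90, 1.62 to 2.24).

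Intronic reads of several genes differed by position at 1 h, and Sema3c is described first. It had 61, 79 and 186 intronic reads, with ratios of 1.76 (1.25 to 2.50) at 1 h and 3.42 (2.55 to 4.65) at 6 h. Intron 2, the longest with 51.0% of the intron length and near the 5′ end, had 23, 57 and 94 reads, a 1 h ratio of 3.37 (2.05 to 5.74). The other introns together had 38, 22 and 92 reads, a 1 h ratio of 0.788 (0.444 to 1.37) and a 6 h ratio of 2.72 (1.84 to 4.07). At 1 h, therefore, only the 5′ part was high, and at 6 h both parts were. Epha4, a receptor for both ephrin types, was like Sema3c at 1 h but not at 6 h. Its longest intron, the third, had 53, 65 and 42 reads, a 1 h ratio of 1.67 (1.14 to 2.45), and its other introns 89, 45 and 72 reads (0.688, 0.470 to 0.996). At 6 h neither part of Epha4 was high, with ratios of 0.889 (0.578 to 1.36) and 0.907 (0.656 to 1.25). In 31 guidance genes both the intron with most reads in any library and the other introns together could be compared at 1 h, and in 12 of them the intervals of these parts did not overlap. The intron with most reads had the higher ratio in 2 of the 12, Sema3c and Epha4, and the lower ratio in 10. The 10 were Efna5, Epha5, Epha6, Epha7, Ephb1, Ntng1, Plxna4, Robo2, Slit2 and Unc5c. In Robo2 the 1 h ratio was 0.903 (0.846 to 0.963) in the intron with most reads, the second, and 1.39 (1.26 to 1.52) in the others. In Unc5c it was 0.891 (0.831 to 0.955) in the first intron and 1.39 (1.25 to 1.56) in the others. Unscaled, the others had 905 and 921 reads at 0 and 1 h in Robo2, and 629 and 644 in Unc5c. Their ratios above 1 thus depend on the intronic scaling, which is the same for both parts of a gene. In Ntng1 the 1 h ratio was 0.527 (0.376 to 0.728) in the second and 1.51 (1.16 to 1.97) in the others. The intron was picked by its reads, so these counts are a description. It was the longest intron in 28 of the 31 genes. The same count was not made over all genes, so a trait of guidance genes cannot be read from it. Spearman's rho between summed intron length and the 1 h intronic ratio was -0.25 across 8143 genes of all kinds and -0.07 across 47 guidance genes. At 6 h against 0 h the intervals were apart in 2 of 32 genes, Ntng1 and Unc5c.

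**Figure D3:**
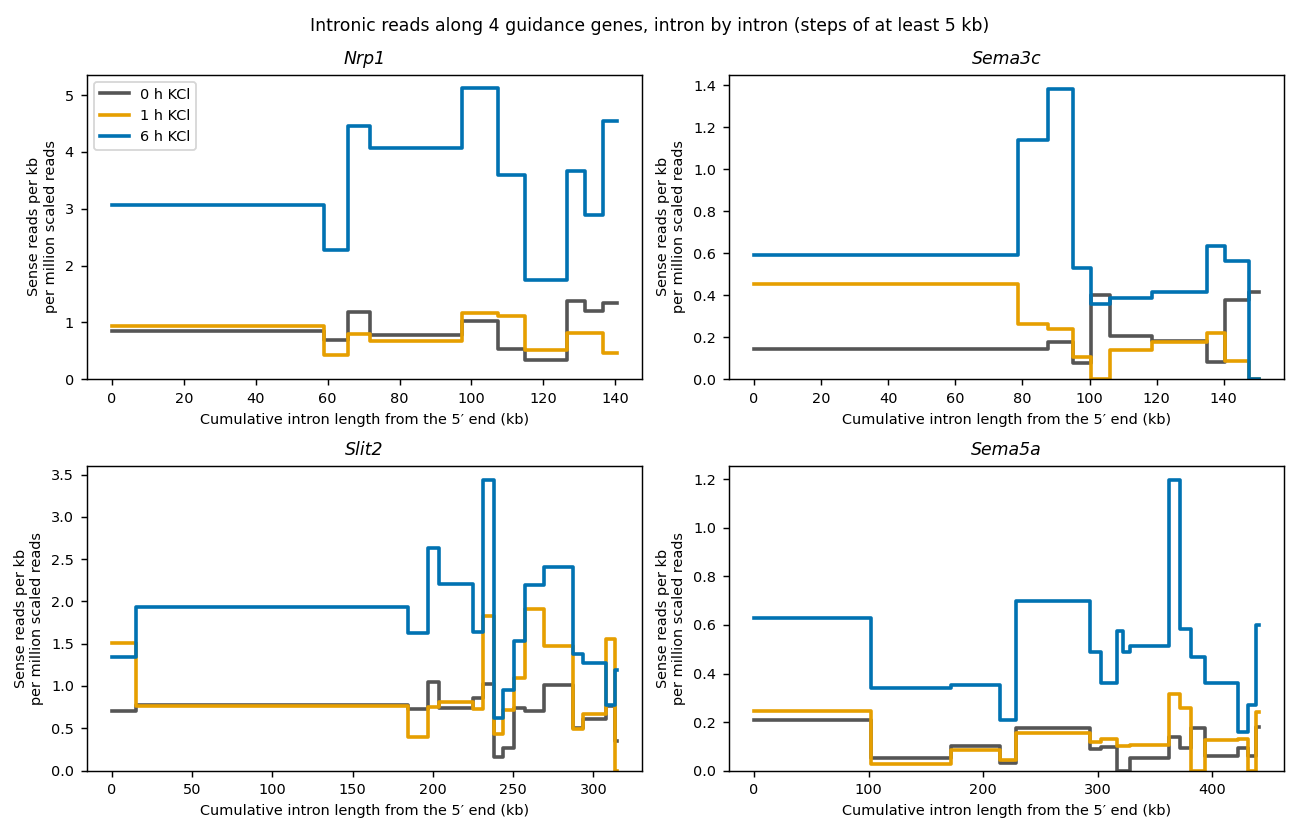
Sense intronic reads divided by length and scaled library size, along the introns of Nrp1, Sema3c, Slit2 and Sema5a, with introns laid end to end from the 5′ end and neighbours joined into steps of at least 5 kb; lines are the libraries at 0 h (grey), 1 h (orange) and 6 h (blue). The 6 h line lies above the others over most of each gene, and in Sema3c the 1 h line is raised over the first step, where intron 2 had 23 reads at 0 h and 57 at 1 h.

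Ntng2, the other netrin-G, had 21, 13 and 70 intronic reads (3.74, 2.27 to 6.41) but 11, 7 and 11 exonic reads. Of the 70 reads at 6 h, 52 were in intron 1, against 7 at 0 h. The remaining introns had 14, 6 and 18 reads, a ratio of 1.44 (0.678 to 3.13), so the 2-fold rule was met through that intron alone. The 2 genes lower in introns at 6 h were Sema7a (49, 19 and 18 reads, 0.412, 0.226 to 0.720) and Efnb3 (27, 21 and 9 reads, 0.374, 0.155 to 0.819), whose exonic ratios were 0.884 and 1.01. In both, 1 intron held most of the reads, and the others had too few to compare.

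At 1 h, 1 of 47 guidance genes was at least 2-fold higher in introns (7.48% of all genes) and 1 lower (6.19%). Efnb1 had 4, 21 and 5 intronic reads (1 h ratio 7.15, 2.41 to 28.6), of which 2, 19 and 5 lay in intron 1. Without that intron there were too few reads to compare. Efnb2 had 904, 998 and 895 intronic reads (1.503, 1.37 to 1.65), and here the intron with most reads (1.42) and the others (1.62) were both higher at 1 h after scaling. Unscaled, these parts had 526 and 378 reads at 0 h and 549 and 449 at 1 h. The size of both ratios therefore depends on the intronic scaling. Sema5b had 60, 21 and 41 (0.476, 0.275 to 0.795), and 0.544 without its intron of most reads. Between 1 and 6 h, 5 of 44 were at least 2-fold higher in introns (7.07% of all genes) and 3 lower (5.79%).

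Exonic and intronic ratios at 6 h could be set side by side for 44 guidance genes. Both were above 1 for 17 and both below 1 for 18. The exonic ratio alone was above 1 for 5 and the intronic ratio alone for 4. Across these genes Pearson's r was 0.75 and Spearman's rho 0.74, against an r of 0.58 across 7450 genes of all kinds. At 1 h r was 0.38 across 45 guidance genes. These are descriptions across genes that share libraries and are not independent, and they carry no test.

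**Figure D4:**
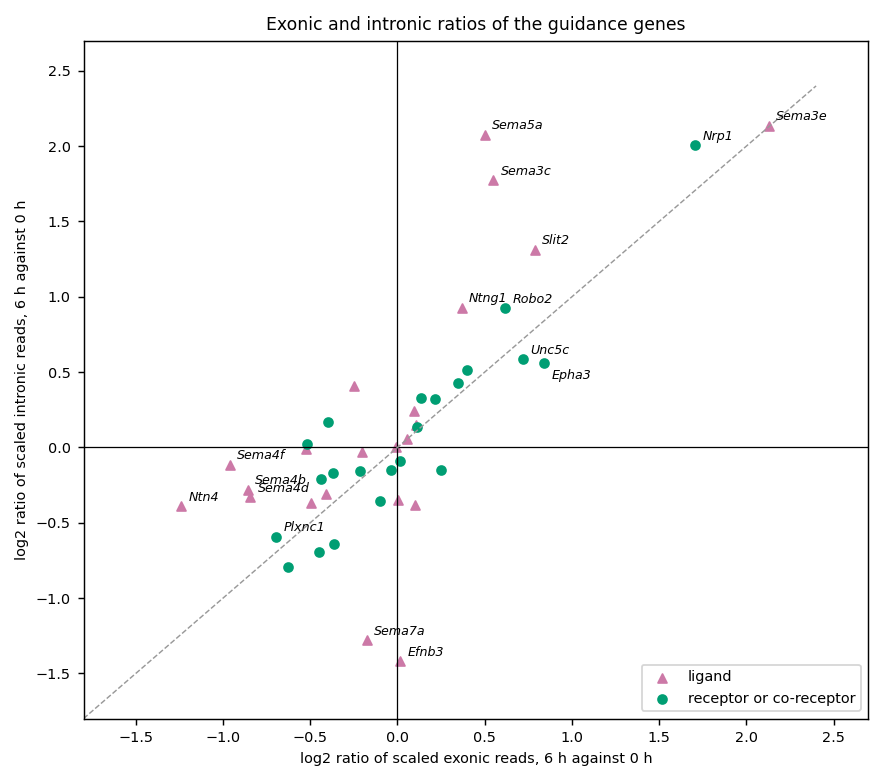
The log2 ratio of scaled intronic reads against that of scaled exonic reads, 6 h against 0 h, for the 44 guidance genes with both; triangles are ligands, circles receptors or co-receptors, and the dashed line marks equal ratios. Nrp1 and Sema3e lie high on both axes, and Sema5a, Sema3c and Slit2 lie above the line.

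The guidance genes are long, with a median summed intron length of 112.0 kb among the 54 compared, against 23.5 kb over all genes compared that have introns. The 7 genes at least 1.5-fold higher in exonic reads at 6 h had a median of 314.6 kb and the 8 lower ones 29.8 kb. Spearman's rho between intron length and the 6 h exonic ratio was 0.39 across the guidance genes and 0.03 across all genes. At 1 h it was -0.02 and -0.17. The genes share libraries and depth, so these values are descriptions without a test. Among the 7 higher genes, only Plxnd1, with 33.3 kb, was shorter in introns than the median guidance gene, and among the 8 lower ones only Plxnc1, with 146.6 kb, was longer.

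**Figure D5:**
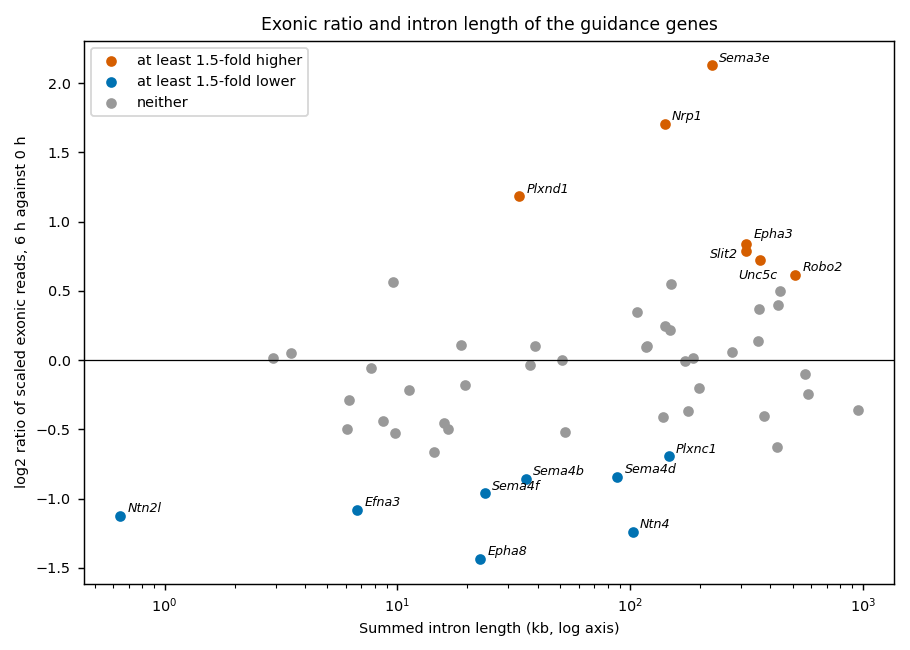
The log2 ratio of scaled exonic reads at 6 h against 0 h, plotted against summed intron length (kb, log axis) for the 54 guidance genes compared. Orange points are at least 1.5-fold higher and blue at least 1.5-fold lower; 6 of the 7 orange points lie to the right of 112.0 kb and 7 of the 8 blue ones to its left.

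Genes that act beside these ligands and receptors were read from 3 lists. Of 22 other guidance receptors and ligands compared in exonic reads at 6 h, 3 were at least 2-fold higher and 0 lower, with a median log2 ratio of -0.01. They were Lrrc4, a synaptic adhesion protein that binds netrin-G2, with 219, 285 and 641 reads (2.77, 2.37 to 3.24), Met, the receptor for hepatocyte growth factor, with 44, 42 and 120 (2.58, 1.81 to 3.73), and Flrt3, which binds Unc5 receptors, with 147, 174 and 361 (2.32, 1.91 to 2.83). In all 3 the 6 h library alone was high. At 1 h, 1 of 23 was at least 2-fold higher, against 1.58% of all genes. It was the gene listed as 2610109H07Rik and now named Draxin, with 13, 30 and 19 reads (2.06, 1.04 to 4.30).

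Of 18 genes of semaphorin and plexin signalling, 0 were higher and 1 was lower at 6 h by the 2-fold rule. That was Farp2, an exchange factor linked to class A plexins, with 49, 47 and 22 reads (0.425, 0.245 to 0.716). Of 16 genes of Eph and ephrin signalling, 1 was higher and 0 lower. It was Ngef, also called ephexin, an exchange factor that acts below EphA receptors, with 78, 82 and 167 reads (2.03, 1.54 to 2.68). The 6 h counts of the 3 lists stand against the same 4.92% and 5.42% of all genes in exons.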

How the data were processed

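RNA of 3 cultures, 1 library each at 0, 1 and 6 h of KCl, was grouped by the titles. Per the deposited counting logs, the authors kept 35 bp reads mapping uniquely with at most 3 mismatches to the genome or to RefSeq splice junctions. The submitters' processing notes name the build mm9. The aligner was not given in the sources used here. Counts, as deposited by the authors, are raw whole reads for each gene, strand and region. Their deposited coverage signal, scaled to 10000000 reads, served as an alternative only.

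Sense exonic and sense intronic counts were each scaled by the trimmed mean of M-values in edgeR 4.0.16 (R 4.3.3) over all genes. Ratios carry exact Clopper-Pearson 95% intervals (Python 3.11.15, scipy 1.17.1, numpy 2.4.6, pandas 2.3.3). Genes with at least 20 reads in 1 of 2 libraries were compared. Log2 ratios for medians used a pseudocount of 0.5 reads, and 3 reads was taken as the floor. With 1 library per time no p-value was computed. The ratio script was tested on simulated data.

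The members and lists were chosen with earlier results of these data known. Named genes are, within each family, those meeting the 2-fold rule against 0 h, those past 1.5-fold in exons at 6 h, the most abundant at 0 h, and partners of these. Members named beyond that rule, and all statements on single introns, were chosen after their values were seen. Of 130 list entries, 2 had no match and were not analysed here. The result of 1 gene list is not reported here. Genes with near-identical copies lose reads under unique mapping. Of the members, 3 overlap another gene on the same strand (Ntn2l, Plxnb2 and Unc5c).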

Additional observations from a re-analysis of the deposited data

How the results depend on the processing

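No paired analysis was possible because each time is 1 library, and no library could be left out. The 3 genes higher in exons at 6 h remained in every scaling tried, and 2 of them with a minimum of 50 reads. No ratio changed sides after passing the 2-fold rule. Counts that moved by over 1.5 times follow, and the causes were not tested. Exonic, higher at 1 h (0 genes): 1 with a minimum of 10 reads and 1 by the authors' coverage. Exonic, lower at 1 h (1): 0 by uniquely mapped reads, 0 with a minimum of 50, 0 by the coverage and 2 with antisense reads subtracted. Exonic, lower at 6 h (4): 2 by mapped reads, 1 with a minimum of 50 and 2 by the coverage. Exonic, lower between 1 and 6 h (1): 3 by total exonic reads, 2 by mapped reads, 0 with a minimum of 50 and 2 by the coverage. Intronic, higher at 1 h (1): 0 with a minimum of 50 and 0 without the intron of most reads. Intronic, lower at 1 h (1): 2 by total intronic reads, 3 by mapped reads, 4 by the coverage, 9 by the exonic factors and 0 without that intron. Intronic, lower at 6 h (2): 0 with a minimum of 50 and 0 without that intron. Intronic, higher between 1 and 6 h (5): 9 by mapped reads, 9 by the coverage and 10 by the exonic factors. Intronic, lower between 1 and 6 h (3): 0 with a minimum of 50, 1 by the exonic factors and 1 without that intron. The median intronic log2 ratio at 1 h was -0.69 by the exonic factors, with -0.66 over all genes. Subtracting antisense reads and leaving out the intron of most reads were chosen after seeing the data. The intervals hold no spread between cultures, and genes under about 50 reads rest on few counts.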
